A study of Homo sapiens with 18 samples.

Results

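Transferrin receptor (TFRC) and 9 other genes of cellular iron handling were followed through RNA-seq libraries of the breast cancer cell line MDA-MB-231. The 10 genes were picked because TFRC RNA was about 2-fold higher after GPS2 knockout, and the other 9 for their known part in iron uptake, storage, export and sensing. They are 10 of 57448 gene rows in the deposited count table, and their values in the comparison of knockout with parental cells are given here as a description without p-values. Counts of calls in that comparison describe it only.

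The 18 libraries fell into 6 groups of 3. WT libraries came from unmodified MDA-MB-231 cells, a triple negative and mesenchymal line. KO1 and KO2 came from cells in which GPS2, a subunit of the NCoR/SMRT corepressor complex, was targeted with Cas9 and 1 of 2 independent sgRNA sets delivered by lentivirus, followed by puromycin selection, and were kept as heterogeneous pools rather than clones. The myrAKT group came from cells carrying a retroviral construct for myristoylated FLAG-tagged AKT1, which is membrane bound and constitutively active. KO1+MK and KO2+MK were the same knockout pools after 4 h in 10 µM MK2206, an allosteric AKT inhibitor. All cells were grown in high-glucose DMEM with 10% serum, no empty-vector or vehicle-treated group is among the 18 libraries, and WT cells were not treated with MK2206. Each label names 3 replicates without saying whether these were separate cultures, so p-values measure only the spread between these samples.

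Most cells take up iron as transferrin bound to the transferrin receptor at the cell surface. In endosomes the ferric iron is reduced by STEAP3 and carried into the cytosol by DMT1, the product of SLC11A2. Surplus iron is stored in ferritin, a shell of heavy (FTH1) and light (FTL) chains that is returned to the lysosome by the receptor NCOA4, or leaves the cell through ferroportin (SLC40A1), and heme iron is released by heme oxygenase 1 (HMOX1). The iron regulatory proteins, IRP1 (ACO1) and IRP2 (IREB2), bind hairpins called iron-responsive elements (IREs) when iron is scarce. Binding in the 3′ UTR protects TFRC mRNA from decay, while binding in the 5′ UTR blocks translation of ferritin and ferroportin mRNA without an equal effect on mRNA level, so counts of RNA bear directly on the former only.

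The IREs themselves were looked for in the sense strand of the protein-coding transcripts of the 10 genes in GENCODE release 44 on hg38, the build of the deposited counts. The pattern was a C, then 5 bases, the loop CAGTGN and 5 bases able to pair with the first 5, G-T pairs included. It was found in 4 of the 10 genes, TFRC, FTH1, FTL and SLC40A1, and not in these letters in SLC11A2, IREB2, ACO1, HMOX1, NCOA4 or STEAP3. A hairpin with an unpaired or inserted base in these positions, or with another loop, would not match. A gene without a match may thus still hold an IRE, and a gene with matches may hold more. Among all canonical coding transcripts with a UTR, 19 of 19224 (0.0988%) held the pattern in the 5′ UTR and 121 of 19229 (0.629%) in the 3′ UTR. The 7 matches are shown because IRPs act on mRNAs through hairpins of this kind, and binding of IRPs to them was not measured here. They are given with 30 bases each, 5′ to 3′ on the transcript strand, and the loop in capitals. The first 4 lie in exon 19 of TFRC in its 3′ UTR, and the last 3 in exon 1 of the other genes in the 5′ UTR.
TFRC, chr3:196050978-196051007, minus strand: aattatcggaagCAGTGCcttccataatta
TFRC, chr3:196050574-196050603, minus strand: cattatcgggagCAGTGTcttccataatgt
TFRC, chr3:196050509-196050538, minus strand: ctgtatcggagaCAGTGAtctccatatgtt
TFRC, chr3:196050462-196050491, minus strand: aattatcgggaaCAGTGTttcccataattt
FTH1, chr11:61967573-61967602, minus strand: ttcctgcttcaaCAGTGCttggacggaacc
FTL, chr19:48965335-48965364, plus strand: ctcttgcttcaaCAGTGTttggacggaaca
SLC40A1, chr2:189580660-189580689, minus strand: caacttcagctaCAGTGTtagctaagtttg

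Between 23419198 and 39319910 reads were counted per library, and the 6 treated libraries were the shallowest (at most 29939536). All 10 genes passed the filter of at least 1 CPM (reads of a gene scaled to a common library total) in at least 3 libraries, which 15587 genes passed. All 7 markers listed for MDA-MB-231 were detected (summed 5156 to 5490 CPM in the 12 untreated libraries and 4371 to 4915 CPM in the 6 treated ones, without overlap, with SPARC low at 0.742 to 5.81 CPM), CDH1 and PGR had at most 4 and 5 counts, and none of the 7 erythroid markers passed the filter. Of 8 luminal or epithelial markers 6 passed the filter, and they summed to 357 to 371 CPM in WT, 240.5 to 255.5 CPM in KO1, 209 to 223.5 CPM in KO2, 159.5 to 173 CPM in myrAKT, 201 to 221 CPM in KO1+MK and 170.5 to 187 CPM in KO2+MK, mostly through KRT19 and ERBB2, while 4 of 4 endothelial markers passed and summed to 17.5 to 19.3 CPM in WT, 25.7 to 28.4 CPM in myrAKT and 12.4 to 15.6 CPM in the knockout libraries, treated or not. PECAM1 had 3.58 CPM in WT and 21.1 CPM in myrAKT on average, and CDH5 had 3.07 and 0.362 CPM. Of 5 blood markers 2 passed (CD14 and CSF1R), with a sum of 2.47 to 4.07 CPM in WT, 3.71 to 4.52 CPM in myrAKT and 2.08 to 3.21 CPM in the knockout libraries, and PTPRC and CD3E had at most 5 counts and 1 count. The part of these markers in the results below was not tested. GPS2 itself stood at 4.57 ± 0.278 CPM in the libraries labelled WT (SD, n = 3), at 4.50 ± 0.0364 CPM in those labelled KO1 and at 6.04 ± 0.123 CPM in those labelled KO2, so its RNA level did not mark the knockout libraries. The study's text describes protein blots and PCR of genomic DNA as its checks of the knockout, which are not analysed here.

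Levels are given as CPM after TMM normalization (edgeR's correction for library composition) over the 18 libraries. Per kilobase of the canonical transcript, FTL stood 9th among 12685 protein-coding genes (1596 CPM per kb over all libraries), FTH1 164th (272 CPM per kb), TFRC 220th (208 CPM per kb) and NCOA4 663rd (92.6 CPM per kb). ACO1 (37.0 CPM per kb) stood above IREB2 (24.8 CPM per kb) and STEAP3 (16.4 CPM per kb). SLC11A2 (9.95 CPM per kb), HMOX1 (5.50 CPM per kb) and SLC40A1 (1.37 CPM per kb) were the lowest, and SLC40A1, the only known iron exporter, rested on 98 to 206 counts per library. Reads from near-identical copies limit the ferritin values: 25 annotated FTH1 pseudogenes held 631 to 1279 counts per library, 7.54% to 10.2% of the FTH1 count, and 16 FTL pseudogenes held 1.12% to 1.45% of the FTL count. Exons of FTH1 overlap BEST1 on the opposite strand over 1267 of 2004 bases, those of STEAP3 overlap STEAP3-AS1 over 500 of 4562 bases and those of TFRC overlap a long noncoding RNA (ENSG00000286168) over 191 of 17376 bases. Whether counting used strand is not given in the sources used here.

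TFRC (ENSG00000072274, chr3:196012511-196082153, minus strand), the entry point of transferrin iron, was the gene by which the set was picked. It stood at 661, 674.5 and 645 CPM in the WT libraries, at 1285, 1303 and 1365 CPM in KO1 and at 1328, 1309 and 1314 CPM in KO2. The ranges of both pools lay above all WT libraries and overlapped each other, and the log2 fold change of KO over WT was 0.98 (standard error 0.0343, 1.97-fold), with 0.98 for KO1 and 0.99 for KO2.

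FTL (ENSG00000087086, chr19:48965309-48966879, plus strand) and SLC40A1 (ENSG00000138449, chr2:189560590-189583758, minus strand) also separated the untreated knockout libraries from WT. FTL, the light chain of ferritin, was 1051, 1111 and 1112 CPM in WT, 1658, 1453 and 1685 CPM in KO1 and 1553, 1493 and 1598 CPM in KO2, a log2 fold change of 0.51 (standard error 0.0515). Ferroportin went the other way, with 5.40, 5.17 and 5.55 CPM in WT, 3.11, 3.79 and 2.88 CPM in KO1 and 2.81, 2.86 and 3.33 CPM in KO2, a log2 fold change of −0.80 (standard error 0.107). Both pools lay wholly to one side of WT for both genes, as KO1 did for 69.2%, KO2 for 70.3% and the 6 knockout libraries for 55.9% of all genes. The receptor that supplies transferrin iron and the light ferritin chain thus had higher RNA in these libraries, and the exporter lower RNA.

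The other 7 genes differed less between knockout and WT. NCOA4 had a log2 fold change of 0.19 (standard error 0.0334), IREB2 of 0.15, FTH1 of 0.13, STEAP3 of 0.10, ACO1 of −0.17, HMOX1 of −0.22 and SLC11A2 of −0.27. An adjusted p of at most 0.001, which is the call used throughout, was met by 4 of the 10 genes (TFRC, FTL, NCOA4 and SLC40A1) beside 32.1% of all genes tested, and nothing is read from that count because this comparison chose the set. Taken singly, 6 genes were called in KO1 (beside 41.7% of all genes) and 7 in KO2 (beside 43.1%), to be read in the same way. The median log2 fold change was 0.12 for the 10 genes and 0.00 (−0.00291) for all genes.

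**Figure D1:**
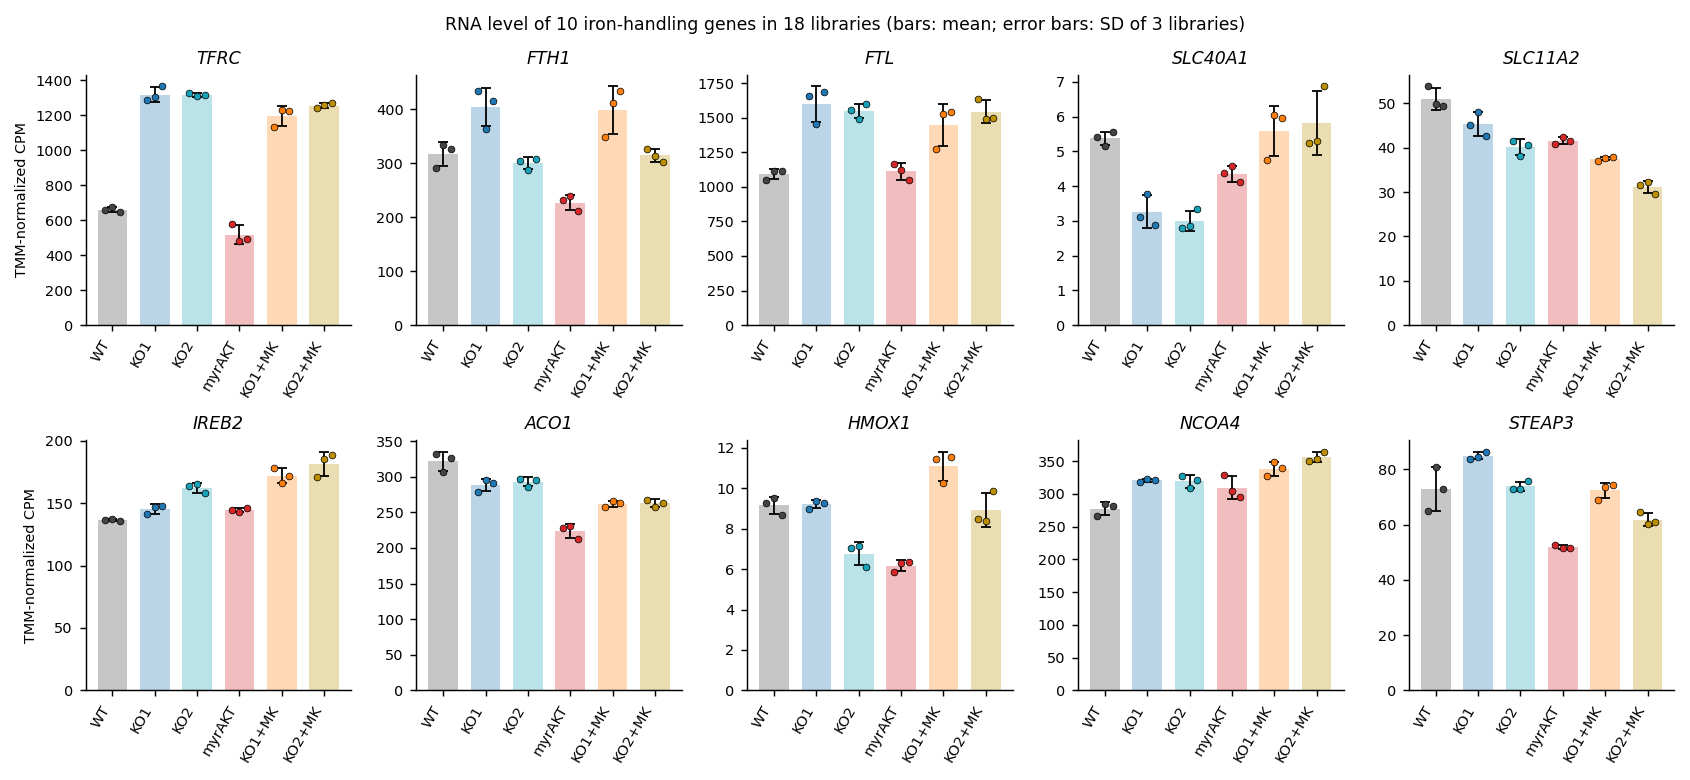
TMM-normalized CPM (y axis, from 0, its scale set for each gene) of the 10 genes in 6 groups (x axis), with 1 point per library, bars for the mean and error bars for the SD of 3 libraries. TFRC lay between 1133 and 1365 CPM in the 12 knockout libraries, treated or not, and between 478 and 674.5 CPM in WT and myrAKT, and SLC40A1 was lower in untreated KO1 and KO2 than in all other groups.

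The pools shared the difference from WT for some genes and not for others, which was tested directly by comparing KO1 with KO2 (edgeR's quasi-likelihood test, two-sided, with Benjamini-Hochberg adjustment over all 15587 genes, as in every test that follows). This difference is separate from the pooled one that picked the set, though the same knockout libraries enter both. FTH1 (ENSG00000167996, chr11:61959718-61967634, minus strand), the heavy chain with the ferroxidase activity of ferritin, was 433, 364 and 416 CPM in KO1 and 305, 288 and 308 CPM in KO2, with WT at 291, 333.5 and 326 CPM. KO1 lay above every KO2 and WT library, while KO2 overlapped WT. FTH1 was higher in KO1 than in KO2 by 0.42 on the log2 scale (standard error 0.048, adjusted p = 4.13e-06).

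HMOX1 (ENSG00000100292, chr22:35380361-35394214, plus strand), which opens the heme ring, and STEAP3 (ENSG00000115107, chr2:119223831-119265652, plus strand), the endosomal ferric reductase, were higher in KO1 as well. HMOX1 was 8.99, 9.39 and 9.25 CPM in KO1 and 7.02, 7.14 and 6.11 CPM in KO2 (log2 fold change 0.43, standard error 0.0819, adjusted p = 0.000564). STEAP3 was 83.9, 84.6 and 86.4 CPM in KO1 and 72.9, 73.1 and 75.8 CPM in KO2 (log2 fold change 0.19, adjusted p = 0.000214). IREB2 (ENSG00000136381, chr15:78437431-78501453, plus strand), the regulator IRP2, was lower, with 141, 147 and 148 CPM in KO1 and 163.5, 165 and 158 CPM in KO2 (log2 fold change −0.17, standard error 0.0315, adjusted p = 0.000512).

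These 4 of 10 genes were called between the pools beside 12.6% of all genes, and libraries of the pools did not overlap for 45.7% of all genes. None of the 4 reached a 1.5-fold difference, while 2.62% of all genes were called and also reached 1.5-fold. The call of FTH1 was kept in all 15 alternatives. The calls of IREB2, HMOX1 and STEAP3 were kept in 8, 10 and 11 of 15, and each was lost on leaving out KO1 replicate 1 (adjusted p = 0.00734, 0.00306 and 0.00152). FTL differed between the pools by a log2 fold change of 0.04, NCOA4 by 0.00 (−0.00292), ACO1 by −0.04, SLC40A1 by 0.11 and SLC11A2 by 0.17, none of them called. For TFRC the difference was −0.01, given without a test because TFRC was picked on the libraries of these pools.

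The libraries of myrAKT cells ask whether active AKT alone gives the same levels. They were not used to pick the set, but the WT libraries they are compared with were. TFRC was 580, 478 and 493 CPM in myrAKT, below the 3 WT libraries, where it had been about 2-fold higher in the knockout pools. Its log2 fold change was −0.36 (standard error 0.0625), given without a test because TFRC was picked on the same WT libraries.

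Of the other 9 genes, 5 were lower in myrAKT than in WT (FTH1, SLC11A2, ACO1, HMOX1 and STEAP3) and 0 were higher, beside 17.3% of all genes lower and 12.7% higher. With library totals in place of TMM factors, 2316 genes were lower and 2413 higher, against 2697 and 1980 in the test as given, and the same 5 genes were lower. The median log2 fold change was −0.33 for the 10 genes and 0.02 for all genes tested. Of the 10 genes 0 reached 1.5-fold, while 13.8% of all genes were called and also reached 1.5-fold.

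The IRP1 gene ACO1 (ENSG00000122729, chr9:32384603-32454769, plus strand), whose product is a cytosolic aconitase when it holds an iron-sulfur cluster, was 332, 306 and 326.5 CPM in WT and 228, 230.3 and 212.5 CPM in myrAKT. The groups did not overlap, as for 60.9% of all genes (log2 fold change −0.53, standard error 0.047, adjusted p = 3.36e-07). STEAP3 was 65.0, 80.8 and 73.0 CPM in WT and 52.6, 51.7 and 51.4 CPM in myrAKT (log2 fold change −0.50, adjusted p = 1.72e-05).

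HMOX1 was 9.27, 9.51 and 8.70 CPM in WT and 5.84, 6.29 and 6.35 CPM in myrAKT, again without overlap (log2 fold change −0.58, standard error 0.0904, adjusted p = 9.18e-05). SLC11A2 (ENSG00000110911, chr12:50979401-51028566, minus strand), the endosomal iron carrier, was 53.8, 49.9 and 49.4 CPM in WT and 40.8, 42.4 and 41.5 CPM in myrAKT (log2 fold change −0.30, adjusted p = 0.000101). Both ends of endosomal iron transfer, reduction by STEAP3 and transport by SLC11A2, thus had lower RNA in myrAKT libraries. FTL (log2 fold change 0.02), IREB2 (0.08), NCOA4 (0.15) and SLC40A1 (−0.31, adjusted p = 0.0267) were not called.

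FTH1 was 231, 239 and 211 CPM in myrAKT, below all WT libraries, and its log2 fold change was −0.49 (standard error 0.059, adjusted p = 7.65e-06). The surrounding genes moved with it, a description made after these values were seen. Of the 207 other genes tested within 5 Mb of FTH1, 193 were below 0 in myrAKT against WT, with a median log2 fold change of −0.48 beside 0.02 for all genes. Over the rest of chromosome 11 the median was −0.54, with 780 of 865 genes below 0, so FTH1 stood 0.05 above the median of its own chromosome. For the other 9 genes the median of their own chromosome lay between 0.02 and 0.04.

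The difference between KO1 and KO2 showed the same chromosome. The median log2 fold change of the other genes of chromosome 11 in KO1 against KO2 was 0.17, with 711 of 865 above 0, and FTH1 at 0.42 stood 0.25 above it. In KO1 against WT the median of chromosome 11 was −0.07 and FTH1 was 0.33, and in KO2 against WT they were −0.25 and −0.08. DNA copies were not measured, and the part of the chromosome in the FTH1 values was not tested.

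**Figure D2:**
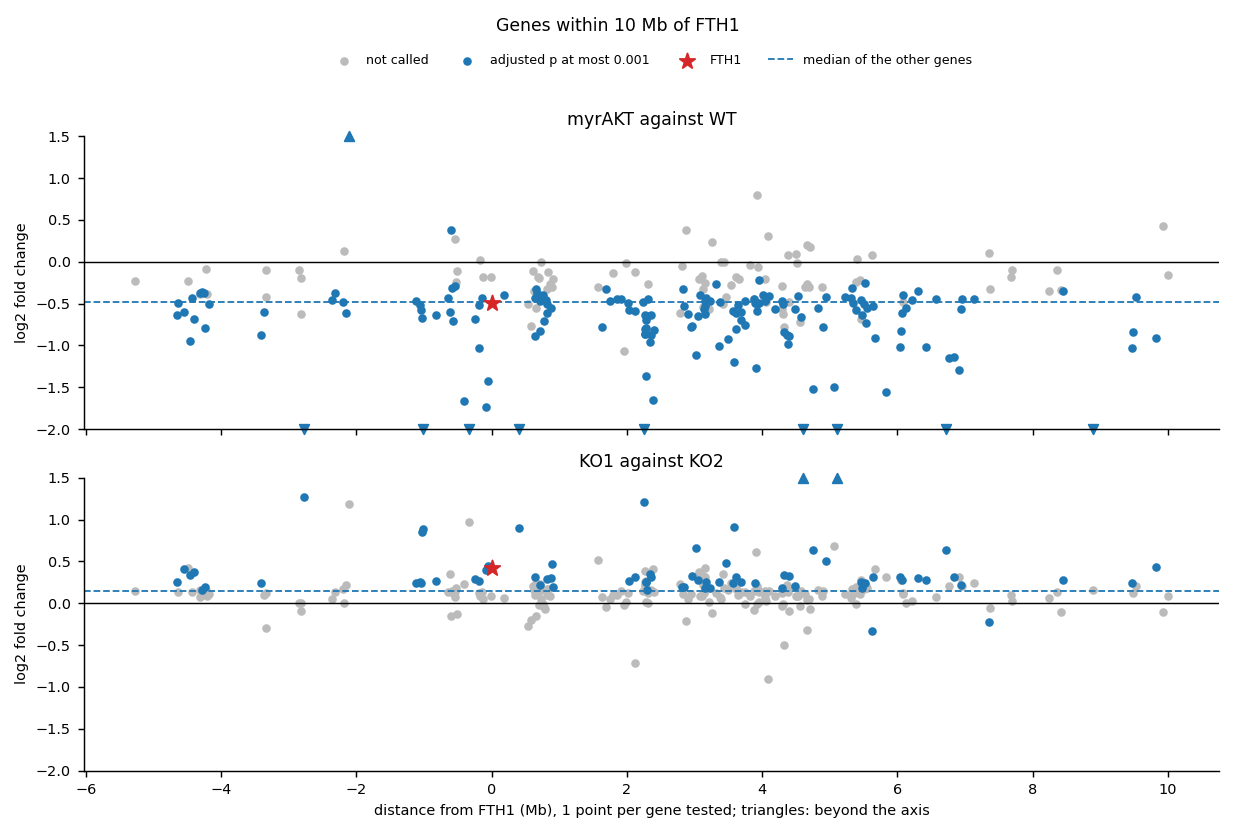
Log2 fold change (y axis, cut at −2 and 1.5) of genes tested within 10 Mb of FTH1 against their distance from it in Mb (x axis), for myrAKT against WT and KO1 against KO2, with blue points for an adjusted p of at most 0.001 and triangles for genes beyond the axis (9 below and 1 above of 261 in the upper panel, 2 above in the lower). The dashed median of these genes lay at −0.48 in the upper panel, next to FTH1 (star) at −0.49, and at 0.15 in the lower panel, below FTH1 at 0.42.

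MK2206 was given to both knockout pools for 4 h, which asks what part of their RNA levels follows AKT activity. SLC40A1 rose most among the 10 genes. It was 4.75, 6.05 and 5.95 CPM in KO1+MK and 5.25, 5.30 and 6.87 CPM in KO2+MK, against 2.81 to 3.79 CPM in the 6 untreated knockout libraries. Treated and untreated libraries did not overlap, which held for 27.5% of all genes, and the log2 fold change was 0.89 (standard error 0.102, adjusted p = 8.54e-06), or 1.85-fold.

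Within the pools the log2 fold change of SLC40A1 was 0.80 in KO1 (adjusted p = 0.000378) and 0.97 in KO2 (adjusted p = 3.12e-05). The call in KO1 was lost without KO1 replicate 1 or 3 or KO1+MK replicate 2 or 3, with adjusted p-values from 0.00196 to 0.00389. The treated libraries and the 3 WT libraries overlapped, with a log2 fold change of 0.08 (95% interval −0.17 to 0.33, adjusted p = 0.568). The lowest and the highest of these values were both treated libraries (4.75 and 6.87 CPM, with WT at 5.17 to 5.55 CPM). The level of SLC40A1 in the untreated knockout libraries was part of the comparison that picked the set.

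Beside SLC40A1, 1 other gene was called with both pools as 1 group, ACO1 (log2 fold change −0.12, standard error 0.0247, adjusted p = 0.000862), giving 2 of the 9 genes other than TFRC beside 21.5% of all genes. Its call was kept in 10 of 23 alternatives, with adjusted p-values up to 0.00909. The fit with both pools as 1 group has no term for the pool, so differences between the pools are part of its spread. With the pool as a factor, 7 of the 9 were called beside 36.3% of all genes, and the cause of this change was not tested.

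These 7 were SLC40A1 and ACO1 together with SLC11A2 (−0.30, adjusted p = 1.82e-06), STEAP3 (−0.22, adjusted p = 6.40e-07), IREB2 (0.22, adjusted p = 5.30e-06), NCOA4 (0.14, adjusted p = 9.30e-05) and HMOX1 (0.35, adjusted p = 6.99e-05). Among all genes tested, 1988 were higher and 1364 lower after treatment without that factor, and 1695 were higher and 1812 lower with upper-quartile factors.

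TFRC did not return to the WT level in 4 h. It was 1133, 1232 and 1226 CPM in KO1+MK and 1239, 1261 and 1268 CPM in KO2+MK. All 6 treated libraries lay below all 6 untreated ones, which reached down to 1285 CPM, but by a log2 fold change of only −0.08 (standard error 0.031). Against WT the treated libraries had a log2 fold change of 0.89 (standard error 0.0444), and both values are given without a test because TFRC was picked on the untreated knockout and WT libraries. The ferritin chains were not called, with log2 fold changes of 0.04 for FTH1 and −0.05 for FTL.

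Within a pool, the 3 treated libraries did not overlap the 3 untreated ones for 55.5% of all genes in KO1 and 55.3% in KO2, beside which the ranges of the next 5 genes are to be read. SLC11A2 was 37.1, 37.7 and 37.9 CPM in KO1+MK and 31.6, 32.3 and 29.5 CPM in KO2+MK, below the untreated libraries of the same pool, which held 42.7 to 48.2 CPM in KO1 and 38.0 to 41.6 CPM in KO2. Its log2 fold change was −0.25 in KO1 (adjusted p = 0.0012) and −0.35 in KO2 (adjusted p = 7.51e-05). STEAP3 was 69.1, 73.8 and 74.3 CPM in KO1+MK and 64.4, 60.3 and 60.9 CPM in KO2+MK, below the untreated libraries of its pool in both, and was called in each (log2 fold changes −0.21 and −0.24, adjusted p = 0.000432 and 0.000205). The call of STEAP3 was lost in KO1 on leaving out any single KO1 replicate or KO1+MK replicate 2 and in 1 fit of all libraries (adjusted p up to 0.00336), and in KO2 without KO2 replicate 1 or 3 or KO2+MK replicate 2 (adjusted p up to 0.0028), while that of SLC11A2 in KO2 was lost without KO2 replicate 1 (adjusted p = 0.00103). Treated libraries lay below untreated ones of their pool for both genes of the pair that reduces and carries iron in endosomes, and SLC11A2 missed the call in KO1, where 8 of 15 alternatives called it (DESeq2 with an adjusted p of 0.000385).

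IREB2 was 178, 166 and 172 CPM in KO1+MK and 171, 185 and 189 CPM in KO2+MK, above the untreated libraries of each pool. Its log2 fold change was 0.27 in KO1 (adjusted p = 0.000124) and 0.18 in KO2, where it was not called (adjusted p = 0.00274). NCOA4 (ENSG00000266412, chr10:46005088-46030623, minus strand), which delivers ferritin to the lysosome, was 327, 348 and 340.4 CPM in KO1+MK and 351, 353 and 364.5 CPM in KO2+MK, called in KO2 (log2 fold change 0.18, adjusted p = 0.000833) and not in KO1 (0.10). The call of NCOA4 was kept in 7 of 15 alternatives, and was lost with upper-quartile factors, in 1 fit of all libraries, with a minimum of 10 counts and on leaving out any single KO2 replicate or KO2+MK replicate 2 or 3 (adjusted p up to 0.00488). The call of IREB2 in KO1 was lost without KO1 replicate 1 (adjusted p = 0.00194). HMOX1 was 11.5, 10.3 and 11.6 CPM in KO1+MK and 8.48, 8.39 and 9.88 CPM in KO2+MK (log2 fold changes 0.29 and 0.42), above the untreated libraries in both pools and called in neither.

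In all, 3 of the 9 genes were called in KO1 (beside 19.2% of all genes) and 4 of the 9 in KO2 (beside 21.9%). Whether the effect of MK2206 differed between the pools was tested as an interaction. Of the 9 genes other than TFRC 0 passed, beside 0.0128% (2 genes) of all genes by edgeR. At an unadjusted p under 0.05, 0 of the 9 genes and 8.03% of all genes passed, and DESeq2 called 22 genes and 0 of the 9. The difference of effects (KO2 minus KO1) was 0.17 for SLC40A1 with a 95% interval of −0.25 to 0.58. For TFRC it was 0.06, given without a test because TFRC was picked on the untreated knockout libraries.

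**Figure D3:**
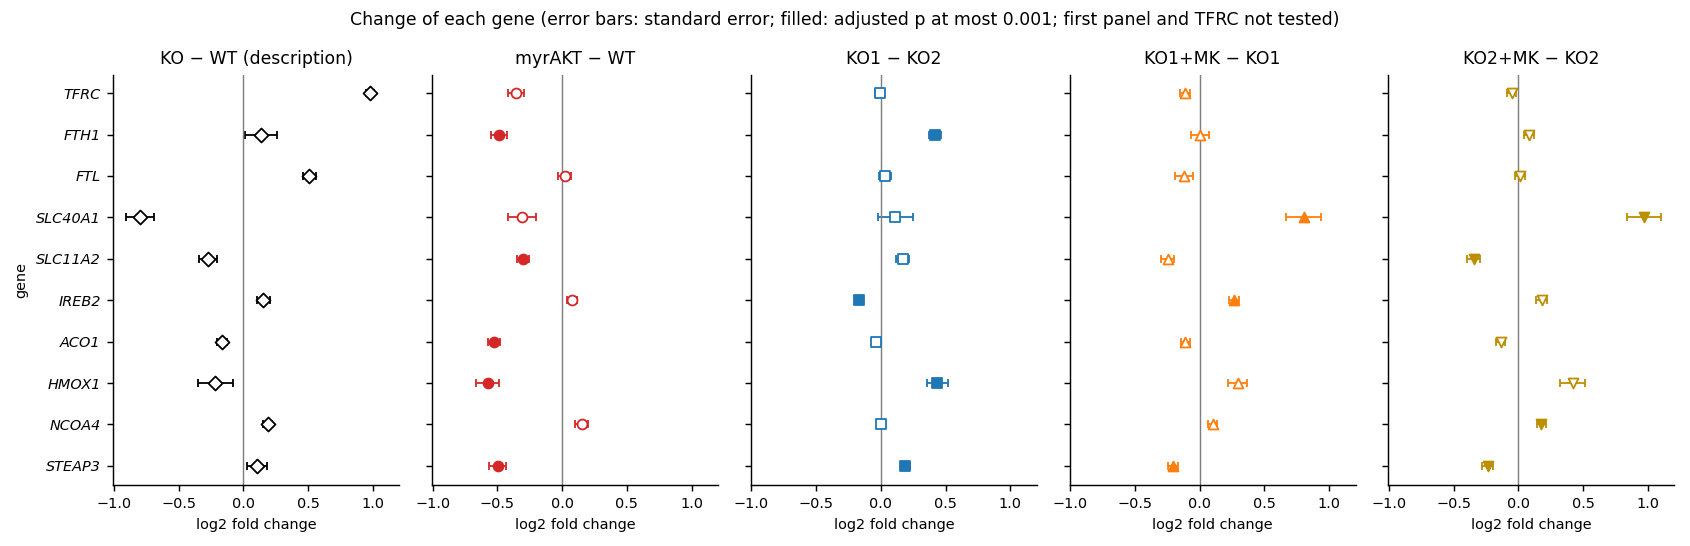
Log2 fold change (x axis) of the 10 genes (y axis) in 5 comparisons, with the standard error as error bars, filled symbols for an adjusted p of at most 0.001, and open symbols otherwise, for TFRC and in the first panel, since TFRC in KO against WT picked the set. SLC40A1 stood at −0.80 in KO against WT and at 0.80 and 0.97 after MK2206 in KO1 and KO2, and 5 of the 9 genes other than TFRC were called lower in myrAKT.

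Treated knockout cells were also compared with untreated WT cells, which share no MK2206 control. TFRC is described above, and of the other 9 genes 5 were called beside 32.0% of all genes. FTL (log2 fold change 0.45, adjusted p = 0.000114, lost at 0.00133 without WT replicate 1), IREB2 (0.37, adjusted p = 4.00e-05) and NCOA4 (0.32, adjusted p = 5.88e-05) were higher. SLC11A2 (−0.58, standard error 0.0779, adjusted p = 5.36e-05) and ACO1 (−0.30, adjusted p = 1.84e-05) were lower. Every comparison with WT shares the 3 WT libraries and every MK2206 comparison shares untreated knockout libraries, so these values are set side by side and not as separate evidence.

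The order of the group means differed between genes. For TFRC, KO1 (1318 CPM) and KO2 (1317 CPM) overlapped, followed without further overlap by KO2+MK (1256 CPM), KO1+MK (1197 CPM), WT (660.1 CPM) and myrAKT (517 CPM). For SLC40A1, KO2+MK, KO1+MK and WT overlapped at the top (5.80, 5.58 and 5.37 CPM), myrAKT stood apart below them (4.36 CPM) and KO1 and KO2 overlapped at the bottom (3.26 and 3.00 CPM). For SLC11A2, WT was highest (51.0 CPM) and KO2+MK lowest (31.1 CPM), with overlap only between myrAKT and KO2. ACO1 had WT at the top (322 CPM) and myrAKT at the bottom (224 CPM), each apart from its neighbour, and IREB2 had WT at the bottom (136.5 CPM) and the treated pools at the top.

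As a description over the 18 libraries, which share groups and normalization, TFRC and FTL had a Pearson correlation of log2 CPM of 0.93, IREB2 and SLC11A2 of −0.91, NCOA4 and SLC11A2 of −0.85, and FTH1 and STEAP3 of 0.83. Among 4963 genes with a mean of at least 10 CPM and group means spread over at least 0.5 on the log2 scale, the 5 closest to TFRC included CYCS (0.99), TTPAL (0.98), SLC5A6 (0.98) and SBDS (0.98). CYCS, which encodes cytochrome c, was 85.4 CPM in WT, 128 CPM in KO, 75.8 CPM in myrAKT and 118 CPM in KO+MK. The 5 closest to FTH1 were NRGN (0.98), EI24 (0.96), ATP5F1D (0.96), SLC35F2 (0.95) and RPS6KB2 (0.95), of which 4 lie on chromosome 11, which holds 5.56% of all genes tested. The 5 closest to SLC40A1 were ARRDC3 (0.94), HELB (0.94), TUBE1 (0.94), PNPLA2 (0.93) and POLB (0.93), and ARRDC3, an arrestin family gene, was 38.3 CPM in WT, 18.9 CPM in KO, 27.2 CPM in myrAKT and 41.5 CPM in KO+MK.

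The wider pathway was followed with 6 lists of other iron-related genes. In myrAKT against WT, where 12.7% of all genes were higher and 17.3% lower, the list of other uptake, reduction and export genes had 2 higher and 4 lower of 13 tested, and storage, chaperone and sensing genes had 1 higher and 4 lower of 10. LRP1, a receptor for heme bound to hemopexin, rose by a log2 fold change of 1.00 (141 ± 35.3 against 70.1 ± 3.91 CPM, SD, n = 3, edgeR's adjusted p = 1.68e-05). SCARA5, a ferritin receptor, was 2.20 ± 0.0401 CPM in myrAKT and 0.0281 ± 0.0275 CPM in WT, a level too close to 0 for a fold. GLRX3, a chaperone of cytosolic iron-sulfur clusters, fell by 0.62 and FBXL5, the iron-sensing subunit that marks IRP2 for degradation, fell by 0.34 on the log2 scale.

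Heme synthesis, transport and breakdown had 2 higher and 4 lower of 21 tested in myrAKT, and mitochondrial iron and iron-sulfur cluster assembly had 6 higher and 7 lower of 31. FDX1, a mitochondrial ferredoxin, had a log2 fold change of −0.85, and CIAPIN1, of cytosolic cluster assembly, one of 0.72. FDX1 lies on chromosome 11 with FTH1, where the median was −0.54, and CIAPIN1 lies on chromosome 16, where it was 0.27.

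NRF2, BACH1 and their known targets, the regulators that also act on HMOX1 and the ferritin genes, had 4 higher and 5 lower of 27 tested in myrAKT, and ferroptosis genes outside iron handling had 1 higher and 4 lower of 17. AKR1C1 stood at 23.6 ± 1.88 CPM in myrAKT and 1.36 ± 0.364 CPM in WT (SD, n = 3), a value that near-identical AKR1C genes make uncertain. TALDO1 of the pentose phosphate pathway, also on chromosome 11, had a log2 fold change of −0.89, HSPB1 one of −0.56 and GCH1, which opens tetrahydrobiopterin synthesis, one of −0.54. The medians of the 6 lists lay between −0.12 and −0.03, beside 0.02 for all genes.

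After MK2206, with 12.8% of all genes higher and 8.75% lower, calls in the 6 lists were as follows. Other uptake, reduction and export genes had 1 higher and 0 lower of 13, storage, chaperone and sensing genes 2 and 1 of 10, heme genes 1 and 1 of 21, mitochondrial iron and cluster genes 3 and 3 of 31, NRF2 and BACH1 genes 3 and 4 of 27, and ferroptosis genes 2 and 1 of 17. List medians lay between −0.07 and 0.01. Summed over the lists these were 12 higher and 10 lower, and 21 higher and 22 lower with the pool as a factor.

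The largest changes in the lists after MK2206 were outside iron transport. SAT1, which acetylates polyamines, rose from 56.6 ± 3.99 to 107 ± 6.27 CPM (SD, n = 6), or 0.94 on the log2 scale (edgeR's adjusted p = 1.95e-08), and GCH1 rose by 0.75. IBA57 and ISCA1, which act together in late mitochondrial cluster assembly, rose by 0.74 and 0.63. ABCB6, a porphyrin transporter, fell by 0.64 and ALAD, of heme synthesis, rose by 0.30, while CYBRD1, a plasma membrane ferric reductase, rose by 0.32. MAFF and GCLC rose by 0.45 and 0.42, and the iron chaperone PCBP1 fell by 0.26. EPAS1 (HIF-2α), whose 5′ UTR is known to hold an IRE, rose by 0.24, a call kept in only 8 of 23 alternatives.

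**Figure D4:**
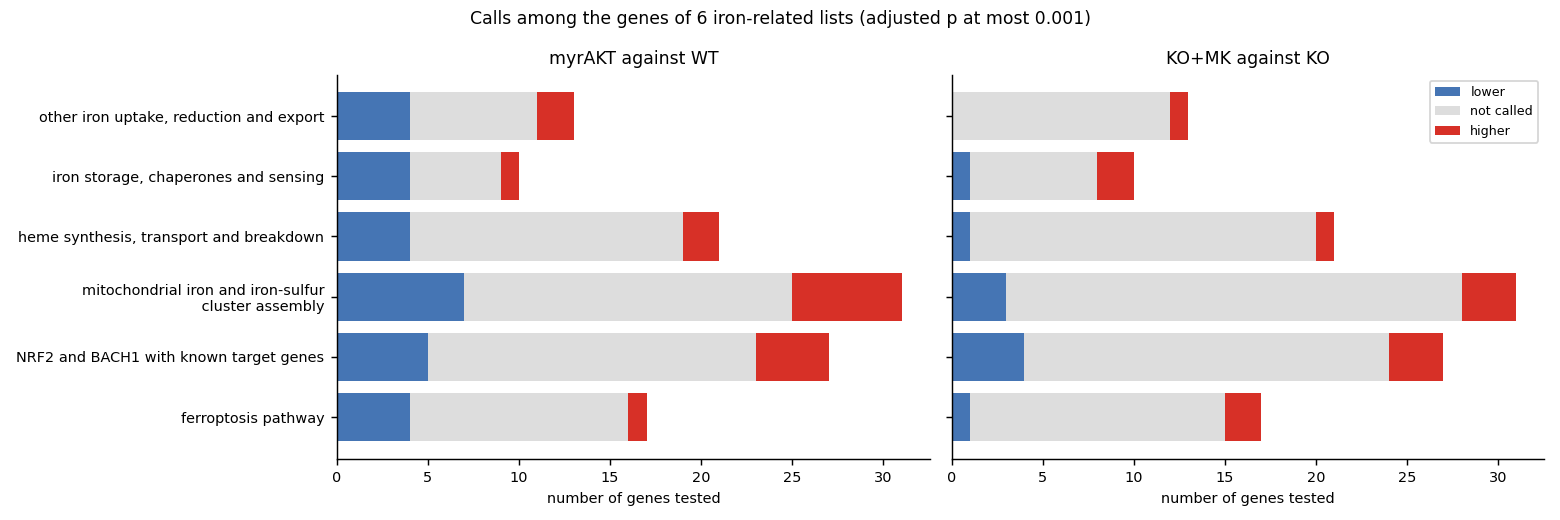
Number of genes tested (x axis) in 6 lists of other iron-related genes (y axis), divided into lower (blue), not called (grey) and higher (red) at an adjusted p of at most 0.001, for myrAKT against WT and KO+MK against KO. In both comparisons most genes of each list were not called except in the storage, chaperone and sensing list in myrAKT, where 5 of 10 were called.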

How the data were processed

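The 18 RNA samples were rRNA-depleted, and their libraries ran in a single pool over 2 sequencing runs. The authors deposited raw counts of reads per Ensembl gene, made per the submitters' processing notes with FastQC, Trim Galore, HISAT2, featureCounts and MultiQC on hg38. Their versions, the annotation, the strand setting and the treatment of reads shared by genes are not given in the sources used here. Groups were taken from the sample labels, gene symbols from a table of Ensembl names (41445 of 57448 IDs) and positions from GENCODE release 44 (56948).

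Genes reaching 1 CPM in 3 or more libraries (15587) were tested with edgeR 4.0.16 in R 4.3.3 (TMM factors, quasi-likelihood test, two-sided, Benjamini-Hochberg adjustment over all of them), on the groups compared only. A call needed an adjusted p of at most 0.001, with no minimum fold. The standard error is the log2 fold change over the square root of F, and 95% intervals use the t distribution. No libraries were identical (mean chi-square per gene 2.14 to 9.78 between replicates). A gene without counts may have been present at up to 3 counts, a limit for counting error only.

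The members, lists and comparisons were chosen with earlier results of these data known. Named were the 10 genes, GPS2, the 2 most changed genes per list and comparison among those called, and the 5 genes most like TFRC, FTH1 and SLC40A1, except a few that are not reported here; chromosome 11 and the genes around FTH1 were examined after its values were seen. Alternatives were DESeq2 1.42.0, 3 other scalings, 2 other filters, a single fit of all libraries, a replicate or pool factor, pseudogene counts added to the ferritin genes, other thresholds and each library omitted in turn. The fits with KO1 and KO2 as separate groups, and the alternatives for either pool against WT, were chosen after seeing the data. Scripts were tested on simulated data, and plots used matplotlib 3.10.9.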

Additional observations from a re-analysis of the deposited data

Results flagged for a closer look

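The TFRC level of KO1+MK replicate 1, 1133 CPM, stood apart from the other 5 treated libraries, with a gap to the nearest of 0.686 of the whole range, above Dixon's 95% critical value for 6 samples. Without it the log2 fold change of TFRC in KO+MK against KO was −0.07 in place of −0.08. It is also the shallowest library, with 23419198 counts. In 20 sets of 6 libraries examined this was the only such value, where chance gives about 1 in 20.

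RNA levels differed between the KO1 and KO2 pools for 4 of the 10 genes by edgeR's test, beside 12.6% of all genes called. KO1 minus KO2 was 0.4172 on the log2 scale for FTH1 (adjusted p = 4.126e-06), 0.4344 for HMOX1 (adjusted p = 0.0005637), 0.1895 for STEAP3 (adjusted p = 0.0002144) and −0.1694 for IREB2 (adjusted p = 0.0005116). All 3 KO1 libraries lay on one side of all 3 KO2 libraries for each of these genes, beside 45.7% of all genes whose libraries did not overlap. The median log2 fold change of the other genes of chromosome 11, which holds FTH1, was 0.17 in the same comparison. Whether GPS2 loss or other differences between the pools gave these values was not tested.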

How the results depend on the processing

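Counts of the 10 genes called depended on the threshold and on how the pools entered the fit. They include TFRC and the comparisons of KO, KO1 and KO2 with WT, for which they are a description only. With a fold change of at least 1.5 added, the counts fell from 4 to 2 in KO against WT, from 6 to 2 in KO1 against WT, from 7 to 2 in KO2 against WT, from 6 to 0 in myrAKT against WT, from 2 to 1 in KO+MK against KO, from 3 to 1 in KO1+MK against KO1, from 4 to 1 in KO2+MK against KO2, from 4 to 0 in KO1 against KO2 and from 6 to 1 in KO+MK against WT, beside 2.62% to 16.7% of all genes. At an adjusted p of at most 0.05 they were 7 in KO against WT, 8 in KO+MK against KO, 8 in KO1+MK against KO1 and 7 in KO2+MK against KO2, beside 45.2% to 59.6%. All 18 libraries in 1 fit gave 7 in KO against WT, 6 in KO+MK against KO and 2 in KO1 against KO2. KO1 and KO2 as separate groups gave 7 in both KO against WT and KO+MK against KO, the pool as a factor gave 7 in KO+MK against KO, and DESeq2 gave 6 there. The cause of these changes was not tested. Over all genes, these fits moved the calls from 5006 to 7543 (1 fit) and 7789 (separate groups) in KO against WT, from 3352 to 5793, 5708 and 5665 (pool factor) in KO+MK against KO, from 4994 to 7741 (1 fit) in KO+MK against WT and from 2 to 0 (1 fit) in the interaction. No filter took KO1 against KO2 from 1964 to 3076 and the interaction from 2 to 60, where DESeq2 gave 22 and the replicate block 1.

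On leaving out each library in turn, the called genes numbered 3 to 4 in KO against WT, 4 to 7 in KO1 against WT, 5 to 7 in KO2 against WT, 5 to 6 in myrAKT against WT, 5 to 6 in KO+MK against WT and 0 in the interaction. They numbered 1 to 2 in KO+MK against KO, with 1 (SLC40A1) without KO1 replicate 2 or 3, KO2 replicate 1 or 3, KO1+MK replicate 2 or 3 or KO2+MK replicate 2 or 3. They numbered 0 to 4 in KO1+MK against KO1 (0 without KO1 replicate 1, 1 without KO1+MK replicate 2), 1 to 5 in KO2+MK against KO2 (1 without KO2 replicate 1, 2 without KO2 replicate 3 or KO2+MK replicate 2) and 1 to 3 in KO1 against KO2 (1 without KO1 replicate 1 or 3 or KO2 replicate 1, 2 without KO1 replicate 2). These fits have fewer samples.

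Replicate numbers are shared by all groups, but same-numbered libraries did not deviate together (correlations from −0.518 to 0.297 over 45 pairs, 12 of them over 0.1, and 5 of 18 libraries closest to their own number). A replicate block took the count in KO+MK against KO from 2 to 1 and gave 3 in KO against WT, 5 in KO1 against WT, 7 in KO2 against WT, 6 in myrAKT against WT, 3 in KO1+MK against KO1, 4 in KO2+MK against KO2, 4 in KO1 against KO2, 6 in KO+MK against WT and 0 in the interaction. The shares of all genes called with this block are not given beside these counts, so they are a description only.

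Some log2 fold changes changed sign in 32 settings, none of them called in either, and the cause was not tested. With a library left out, FTL ranged from −0.02292 to 0.05243 in myrAKT against WT, from −0.03163 to 0.0355 in KO2+MK against KO2 and from −0.001821 to 0.09789 in KO1 against KO2. FTH1 ranged from −0.02574 to 0.104 in KO+MK against KO and from −0.07239 to 0.07309 in KO1+MK against KO1, and ACO1 in the interaction from −0.04434 to 0.0001422. In KO1 against KO2, TFRC ranged from −0.03438 to 0.005907, SLC40A1 from −0.01399 to 0.1913 and NCOA4 from −0.02147 to 0.01439. Without a filter, values were −0.01542 for FTL in myrAKT against WT, −0.03022 for FTH1 in KO1+MK against KO1 and, in KO1 against KO2, 0.03382 for TFRC, 0.008564 for ACO1 and 0.04105 for NCOA4. With all 18 libraries in 1 fit they were −0.02142 for FTH1 in KO1+MK against KO1, −0.005665 for FTL in KO2+MK against KO2 and, in KO1 against KO2, 0.0008977 for TFRC and 0.008132 for NCOA4. Upper-quartile factors gave −0.02121 for FTH1 in KO1+MK against KO1 and −0.03019 for FTL in KO2+MK against KO2. DESeq2 gave −0.002386 for FTH1 in KO1+MK against KO1, its size factors −0.001854, and a minimum of 10 counts −0.0009864 there and 4.323e-05 for NCOA4 in KO1 against KO2.

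Counts in the 6 gene lists depended on the fit as well. LRP1 is in both the uptake and the heme list, and sums over the lists count it in each. Summed over the lists, 16 calls were higher and 28 lower in myrAKT against WT, with 12 to 20 higher and 20 to 32 lower over the alternatives. In KO+MK against KO 12 were higher and 10 lower, with 8 to 22 higher and 7 to 26 lower, and upper-quartile factors gave 9 higher and 17 lower.

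SLC40A1 and HMOX1 rest on 98 to 206 and 194 to 347 counts per library, and the other 8 genes on at least 881. Without a vehicle control, the effect of MK2206 and that of 4 h of handling cannot be told apart.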

Other observations

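Chromosome 11 stood apart from the other chromosomes in myrAKT against WT, where 580 of its 866 tested genes fell and 20 rose (edgeR, adjusted p of at most 0.001). Chromosome 16 had 236 of 694 genes higher and 52 lower, with a median log2 fold change of 0.27, and the medians of the remaining chromosomes lay between −0.07 and 0.13. In KO1 against KO2, chromosome 11 had 270 genes higher and 9 lower, with a median of 0.17, and the other medians lay between −0.08 and 0.03. Of the 10 genes described here, FTH1 alone lies on chromosome 11 and none on chromosome 16.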
